A study of Mus musculus with 4 samples.

Results

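Fzd3 and Fzd6 are 2 of the 10 Frizzled receptor genes on a panel of 140 genes that was imaged in sections of newborn mouse brain. Both were taken by gene symbol, ignoring case, and both were found on all 4 imaged coverslips. In the RefSeq gene table of mouse assembly GRCm38.p6 they carry the gene IDs 14365 (Fzd3) and 14368 (Fzd6). They were described across cell classes defined by marker genes, above all in neurons and in cells of blood vessels, and neither of them was used to define a class.

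Frizzled proteins are membrane receptors for Wnt ligands, secreted lipid-modified proteins that act between neighbouring cells. Fzd3 and Fzd6 form a subfamily of their own by sequence and are best known in the mouse for planar cell polarity signalling, which orients cells within a tissue and steers growing axons. Loss of Fzd3 disrupts major axon tracts of the mouse forebrain, loss of Fzd6 disturbs the orientation of hair follicles, and the pair act redundantly in closure of the neural tube. In brain vessels the Frizzled gene with the best established role is Fzd4, which carries the norrin and Wnt7 signals that build the barrier of the endothelium.

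The tissue came from mice at postnatal day 5, 24 h after a lesion of the right-side whiskers at postnatal day 4. Each coverslip held a pair of coronal sections, 10 µm thick, that included barrel cortex, the cortical map of the whiskers: 1 section was from a wild-type mouse and 1 from a Cx3cl1(-/-) mouse, which lacks the chemokine fractalkine. Male tissue lay on coverslips 1 and 2 and female tissue on coverslips 3 and 4, and every mouse carried the lesion. The strain is not named in the labels. The files do not assign a section to a genotype or a hemisphere to the lesion, so a coverslip value pools both genotypes and both sides of the brain, and neither effect was tested. The labels do not say whether sections on different coverslips came from different litters. The p-values below rest on the spread between coverslips as edgeR estimates it, with information shared over genes. They are therefore not set by the coverslip values of 1 gene alone.

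MERFISH reads each transcript in place as a barcode built up over rounds of imaging. The 4 coverslips gave 863580 segmented cells and between 33519204 and 76555311 gene counts each. Cells with at least 20 gene counts were kept, which left 794833 cells with a median of 161 to 273 gene counts per coverslip. Coverslip 4 was the deepest. Another 40 blank barcodes that match no probe measured false decoding and took 1.16% to 1.48% of decoded counts. Fzd3 gave 244886 to 505240 counts per coverslip and Fzd6 41962 to 64774.

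Cells were sorted into 7 classes by counts of marker genes, with fewer than 5 counts from the markers of the other classes (fewer than 3 for Enpp6; border macrophages could carry microglia markers). Neuron-gated cells (297984, 37.4% of kept cells) had at least 20 counts of the neuronal RNA Meg3 and 5 of inhibitory or excitatory markers. Vessel-gated cells (20970, 2.66%) had at least 10 counts of Cldn5 and Pecam1, which are endothelial junction genes, and of Pdgfrb, the growth factor receptor of mural cells. Each vessel cell type thus rests on fewer than 3 markers of this panel, so the classes are called by their gates. The other gates held 60744 astrocyte, 20420 oligodendrocyte precursor, 5997 microglia, 1290 border macrophage and 963 Enpp6 (newly formed oligodendrocyte marker) cells. The remaining 48.6% of kept cells met no gate. Vessel-gated cells held 28.3 Cldn5 counts per cell against 0.145 in neuron-gated cells, and 1.82 Meg3 counts against 114.

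Fzd3 was highest in neurons. Neuron-gated cells carried 2.31, 2.31, 2.19 and 2.93 Fzd3 counts per cell on coverslips 1 to 4, a mean of 2.43 ± 0.334 (SD, n = 4 coverslips). Astrocyte-gated cells carried 0.753, 0.672, 0.772 and 0.967, and vessel-gated cells 0.223, 0.228, 0.223 and 0.269. The ranges of the 3 classes did not overlap, and coverslip 4, the deepest, was the highest in each. Between astrocytes and vessel cells lay Enpp6-gated cells (mean 0.785 ± 0.0740), oligodendrocyte precursors (0.551 ± 0.0414), border macrophages (0.448 ± 0.0548) and microglia (0.363 ± 0.0610). The neuron level stood above the next class on 4 of 4 coverslips. Astrocyte-gated and Enpp6-gated cells could not be ordered, since each was higher on 2 of 4 coverslips. The level in vessel-gated cells was near the blank background: it exceeded the highest of the 40 blanks on 2 of 4 coverslips and at least 39 blanks on each.

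The order below neurons depended on the unit. Per 10000 gene counts of the class, Fzd3 stood at 78.8 ± 6.53 in neuron-gated cells, 57.9 ± 5.04 in oligodendrocyte precursors, 47.6 ± 1.75 in astrocytes and 18.6 ± 1.67 in vessel-gated cells. Neurons stayed first and vessel cells last on all 4 coverslips in this unit as well. Oligodendrocyte precursors, whose median cell had 81 to 93 gene counts, moved ahead of astrocytes.

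**Figure D1:**
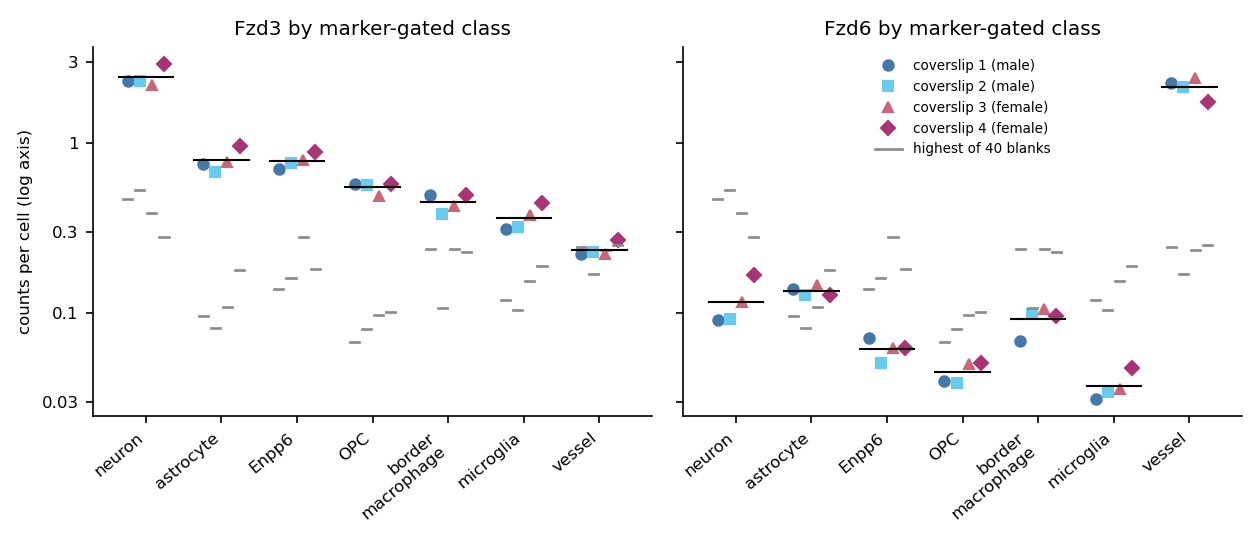
Counts per cell (log axis) of Fzd3 (left) and Fzd6 (right) in 7 marker-gated classes; each point is 1 coverslip, the black bar the mean of 4 coverslips and the grey dash the highest of 40 blank barcodes on that coverslip. Fzd3 was highest in neuron-gated cells (mean 2.43) and lowest in vessel-gated cells (0.236), and Fzd6 stood at 2.14 in vessel-gated cells and at or under 0.135 on average in every other class; levels are not compared between the genes.

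Fzd6 showed the opposite pattern. Vessel-gated cells carried 2.25, 2.14, 2.42 and 1.74 Fzd6 counts per cell on coverslips 1 to 4 (mean 2.14 ± 0.289, SD, n = 4), above every blank on each coverslip. Neuron-gated cells carried 0.0908, 0.092, 0.117 and 0.167, and in no coverslip did this exceed the highest blank. The groups did not overlap, and coverslip 4 was the lowest among vessel-gated cells and the highest among neuron-gated cells. All other classes were low: astrocytes had 0.135 ± 0.00913, border macrophages 0.0922 ± 0.0166, Enpp6-gated cells 0.0618 ± 0.00828, oligodendrocyte precursors 0.0450 ± 0.00669 and microglia 0.0374 ± 0.00723. Outside vessel-gated cells only astrocytes exceeded every blank on any coverslip, on 3 of 4. The neuron range overlapped those of astrocytes and border macrophages, and the order of these 3 classes changed between units.

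Most vessel-gated cells held at least 1 Fzd6 transcript. The share was 73.4% ± 3.77 (SD, n = 4) in vessel-gated cells and 10.6% ± 2.89 in neuron-gated cells, which have more gene counts per cell. For Fzd3 the share was 79.1% ± 3.35 in neuron-gated cells and 18.5% ± 1.58 in vessel-gated cells. Counts of 3 to 5 Fzd6 transcripts were found in 23.6% of vessel-gated and 0.106% of neuron-gated cells, and 6 or more in 8.86% of vessel-gated cells. Counts of 3 to 5 Fzd3 transcripts were found in 28.04% of neuron-gated and 0.820% of vessel-gated cells. Both genes were counted together in 14.9% of vessel-gated and 8.82% of neuron-gated cells. With each cell thinned to 50 gene counts, Fzd6 was seen in 52.6% ± 8.49 of vessel-gated cells and 1.82% ± 0.190 of neuron-gated cells. Fzd3 was then seen in 32.6% ± 2.23 of neuron-gated and 8.33% ± 0.938 of vessel-gated cells, and neither pair of ranges overlapped. Thinning left out 9.41% of vessel-gated cells and 0.0536% of neuron-gated cells as too shallow, and took at most 20000 cells per class and coverslip.

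Gated vessel cells accounted for a minority of all Fzd6 counts. They made up 2.66% of kept cells and held 22.7% ± 5.74 (SD, n = 4) of the Fzd6 counts. Cells that met no gate but had at least 5 counts of the vessel markers made up 5.51% ± 0.893 of cells and held another 37.5% ± 2.90. Their level, 1.77 ± 0.231 Fzd6 counts per cell, compared with 0.109 ± 0.0302 in ungated cells with fewer vessel marker counts, and these ranges did not overlap. Neuron-gated cells held 16.9% ± 4.34 of the Fzd6 counts, at a level within the blanks. On coverslip 4 this share exceeded that of vessel-gated cells (23.1% against 14.3%), and on the other coverslips it was the smaller one. Neuron-gated cells, 37.4% of kept cells, held 55.9% ± 2.99 of all Fzd3 counts. Per 10000 gene counts, Fzd3 was 78.8 ± 6.53 in neuron-gated cells against 70.2 ± 5.39 in all kept cells. Their share of Fzd3 was thus not far above their share of all gene counts.

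The main comparison set vessel-gated against neuron-gated cells, with counts summed per class and coverslip, scaled to the summed cell volume and fitted with coverslip as a block. A gene was called if edgeR's glmTreat placed it beyond a 2-fold difference at an adjusted p under 0.05 and if it exceeded every blank on every coverslip in the class where it was higher. Of 112 genes tested, 15.2% were called higher and 23.2% lower in vessel-gated cells, and the median log2 difference was -0.93. Fzd3 was lower in vessel-gated cells by log2 -3.10, -3.05, -2.92 and -3.11 on coverslips 1 to 4. The fitted difference was -3.04 ± 0.07 (SE), or 8.25-fold, with an adjusted p of 7.9e-10 by edgeR. All 4 coverslips had the same sign.

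Fzd6 was higher in vessel-gated cells by log2 4.91, 4.82, 4.75 and 3.72 on the 4 coverslips. The fitted difference was 4.55 ± 0.23 (SE), or 23.5-fold, with an adjusted p of 2.7e-06 by edgeR. Because Fzd6 in neuron-gated cells did not exceed the blanks, it was also set against the highest neuron blank per cell volume, over which the vessel level was 4.95 to 8.04-fold. Scaling to gene counts in place of volume (TMM factors) gave log2 -2.09 for Fzd3 and 5.51 for Fzd6. That scaling moved the median of all genes to 0.02 and the calls from 17 higher and 26 lower to 22 and 15, and both genes kept their calls.

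**Figure D2:**
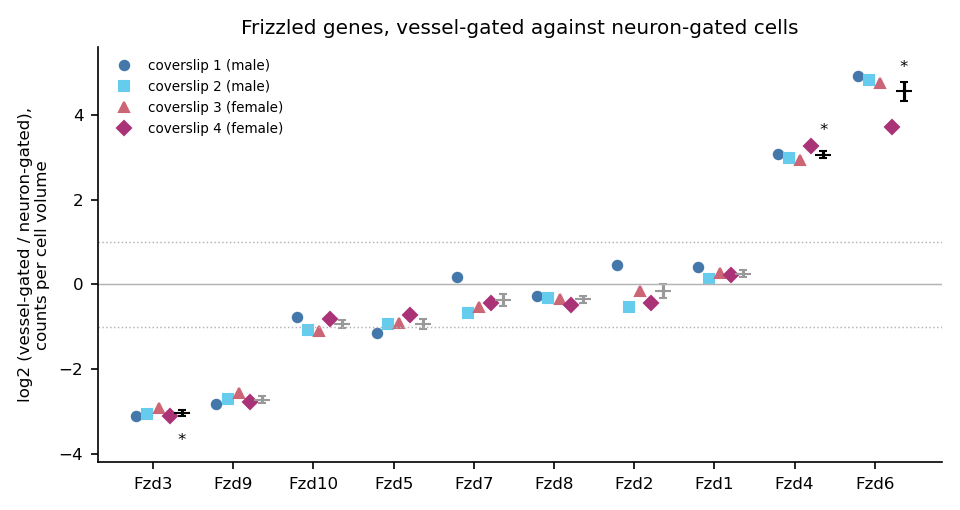
Log2 ratio of counts per cell volume, vessel-gated over neuron-gated cells, for the 10 Frizzled genes; coloured points are coverslips, bars are the fitted difference with its standard error (black with an asterisk where called, grey where not) and dotted lines mark a 2-fold difference. Fzd6 (4.55) and Fzd4 (3.06) were called higher in vessel-gated cells and Fzd3 (-3.04) lower, while the other 7 genes were not called.

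Within the Frizzled family Fzd3 was the only gene called lower in vessel-gated cells and Fzd6 and Fzd4 were the only ones called higher. The remaining 7 were not called, and the median of the 10 genes was log2 -0.36 against -0.93 over all tested genes. Fzd4 had a log2 difference of 3.06 ± 0.08, with 1.35 ± 0.202 counts per vessel-gated cell and 0.200 ± 0.0212 per neuron-gated cell. Fzd9, a receptor found in the developing hippocampus, had a log2 difference of -2.72 ± 0.09 but did not exceed every blank in neurons on 1 of 4 coverslips, so it was not called. Fzd1 (0.25), Fzd2 (-0.17), Fzd7 (-0.37), Fzd8 (-0.35), Fzd5 (-0.93) and Fzd10 (-0.94) lay within 2-fold. With TMM factors Fzd1 was also called higher, at log2 1.21, and Fzd2, Fzd5, Fzd7, Fzd8 and Fzd10 took values between 0.02 and 0.79 without a call.

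Other genes of the pathway were read against the 15.2% of all tested genes called higher, the 23.2% called lower and the all-gene median of -0.93. Among Wnt ligands 1 of 17 was called higher and 3 lower in vessel-gated cells (median log2 -1.74). Wnt16 (log2 -3.37 ± 0.11), Wnt7b (-2.58 ± 0.08), a ligand that neural cells supply to brain endothelium, and Wnt4 (-1.68 ± 0.11) were lower, and Wnt5a (1.14 ± 0.08), a ligand known for planar polarity signalling, was higher. Of 12 tested genes for co-receptors and planar polarity 3 were called higher and 3 lower (median -0.89). The higher ones were Adgra2, an adhesion receptor that endothelium needs to respond to Wnt7 (log2 3.35 ± 0.07), the Wnt co-receptor Lrp5 (3.03) and Daam2 (1.21). The 3 dishevelled genes Dvl1 (-1.67), Dvl2 (-1.93) and Dvl3 (-1.42), whose products bind Frizzled receptors inside the cell, were lower. Of 8 nuclear effectors and regulators of β-catenin 3 were higher and 2 lower (median -0.06): the transcription factor genes Tcf7 (3.93 ± 0.13), Tcf7l1 (2.59) and Lef1 (2.58) were higher, and Apc (-2.03) and Gsk3b (-1.84), of the complex that degrades β-catenin, were lower. The lower calls depended on the scaling to volume: with TMM factors Dvl1 (-0.71), Dvl2 (-0.97), Dvl3 (-0.47), Wnt4 (-0.72), Gsk3b (-0.89) and Apc (-1.07) were not called, while Wnt16 (-2.42), Wnt7b (-1.62) and the 7 higher genes were.

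The other classes were compared with the same neuron sums, so the 5 comparisons with neurons share that side and are only set beside each other. Fzd3 was called lower than in neurons in each of them. It was lower in astrocyte-gated cells by log2 -1.39 ± 0.06 (adjusted p = 8.8e-06 by edgeR), where 25.9% of genes were called lower. In oligodendrocyte precursors it differed by -1.86 ± 0.07 (28.6% of genes called lower), in border macrophages by -2.13 ± 0.09 (31.2%) and in microglia by -2.53 ± 0.08 (34.8%). All 4 coverslips had the same sign in each comparison, and the median gene was lower as well, by -0.82 to -2.14. Under scaling to gene counts with TMM factors these 4 calls ended, at log2 -0.68 (astrocytes), -0.50 (precursors), -0.90 (border macrophages) and -0.38 (microglia).

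For Fzd6 none of these other classes was called against neurons. The log2 difference was 0.49 ± 0.15 in astrocytes, -0.01 ± 0.20 in border macrophages, -1.07 ± 0.09 in precursors and -1.40 ± 0.11 in microglia. In all of these comparisons the side with the higher level failed to exceed the blanks on at least 1 coverslip. Coverslip 4 was the only one where astrocytes were below neurons, at -0.10 against 0.57 to 0.80 on the others.

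Among neurons, Fzd3 was highest in Cux2 cells and lowest in inhibitory cells with little Bcl11b. Cells with Rorb and Cux2, genes of layer 4 and upper cortical layers, carried 3.37, 3.64, 3.57 and 4.70 Fzd3 counts per cell on coverslips 1 to 4. Cells with Cux2 and little Rorb carried 3.74, 3.42, 3.36 and 4.25. Inhibitory cells with at most 1 Bcl11b count and fewer than 5 each of Sst and Vip carried 1.43, 1.504, 1.35 and 1.88. The Cux2 groups overlapped with each other and lay above the inhibitory group on every coverslip. The ratio of Rorb and Cux2 cells to that inhibitory group was 2.48 ± 0.122 per cell (SD, n = 4), 2.27 per volume and 2.65 per 10000 gene counts. For the Cux2 cells with little Rorb it was 2.41 ± 0.175 per cell, 2.27 per volume and 2.90 per 10000 gene counts.

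The other subtypes lay between these. Inhibitory cells with Bcl11b, a factor of deep-layer and striatal neurons, carried 2.84 ± 0.216 counts per cell, and cells with Slc17a6, the vesicular glutamate transporter VGluT2, carried 2.63 ± 0.397. Vip cells (2.35 ± 0.473), Bcl11b cells with little Gad1 and Gad2 (2.31 ± 0.307) and Sst cells (2.28 ± 0.366) overlapped in range per cell. They had no fixed order over coverslips in that unit. The order of the middle subtypes depended on the unit: per 10000 gene counts Sst cells (59.4 ± 0.967) lay below Vip cells (82.4 ± 7.88) and Bcl11b cells (79.3 ± 5.92) on all 4 coverslips without overlap, and Slc17a6 cells (64.6 ± 4.09) came sixth of 8. Within excitatory-type cells, the Cux2 group exceeded the Bcl11b group 1.60-fold ± 0.0805 per cell, on 4 of 4 coverslips. Fzd6 stayed below the highest blank in all 8 subtypes on all 4 coverslips.

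**Figure D3:**
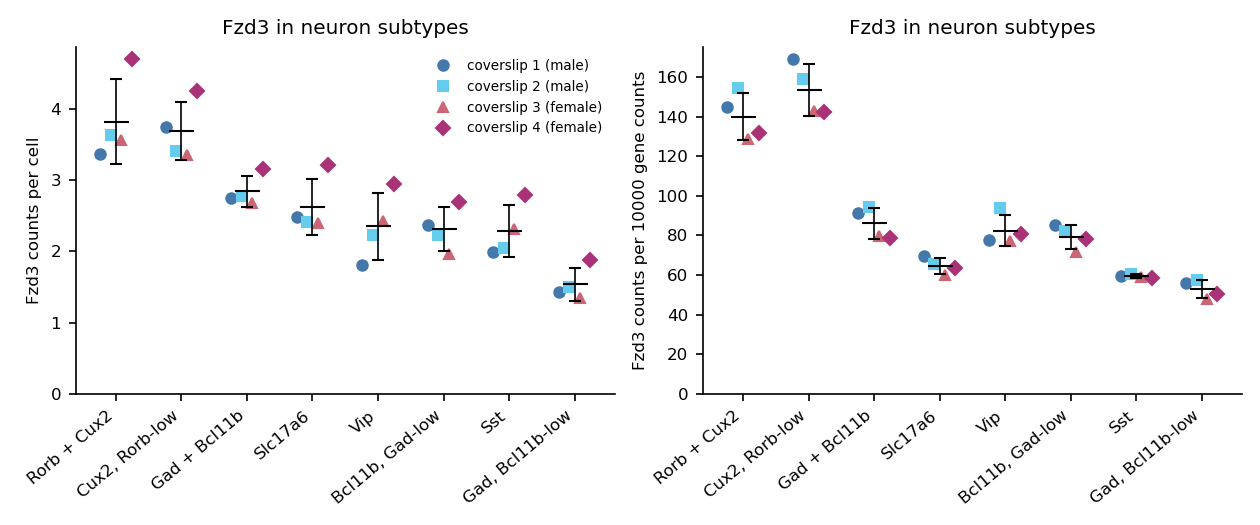
Fzd3 in 8 neuron subtypes per cell (left) and per 10000 gene counts (right); points are coverslips and bars the mean ± SD of 4 coverslips. The Cux2 groups (3.82 and 3.69 counts per cell) lay above the inhibitory group with little Bcl11b (1.54) on every coverslip.

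All inhibitory against all excitatory-type neurons gave a smaller difference. Inhibitory neurons carried 1.98, 1.99, 1.95 and 2.51 Fzd3 counts per cell and excitatory-type neurons 2.69, 2.59, 2.40 and 3.31, so inhibitory cells were lower on each coverslip although the ranges overlapped. The log2 difference was -0.38 ± 0.03, which did not pass 2-fold (adjusted p = 1 by edgeR) but differed from no change (adjusted p = 3.0e-07). The median gene differed by -0.19. Of the Frizzled genes, all but Fzd5 (adjusted p = 0.10) and Fzd6 (0.81) also differed from no change by edgeR. Such a difference was thus not particular to Fzd3, and the share of all tested genes that had one is not given here. In this comparison 6.25% of 112 genes were called at 2-fold. Fzd9 was among them, lower in inhibitory cells by log2 -1.75 ± 0.05. The difference of Fzd6 was -0.02 ± 0.06.

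Fzd3 also varied over the tissue. In squares of 200 coordinate units with at least 20 neuron-gated cells, the median Fzd3 count per neuron was 1.92 to 2.48 over the 4 coverslips. The square at the 10th percentile held 0.825 to 1.46 and that at the 90th percentile 3.46 to 4.51. Counting error alone, for a square at the median with the median number of neurons, was 0.184 to 0.202. The spread between squares exceeded that several times over. This error leaves out the spread of Fzd3 between neurons and is larger in squares with fewer neurons. The part of the subtype mix of a square was not tested. The unit of the coordinates is not given. On the map of coverslip 4, read by eye, the high squares formed a band along part of the outer edge of both sections. Distance to the edge was not measured, and no map was drawn for the other coverslips.

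**Figure D4:**
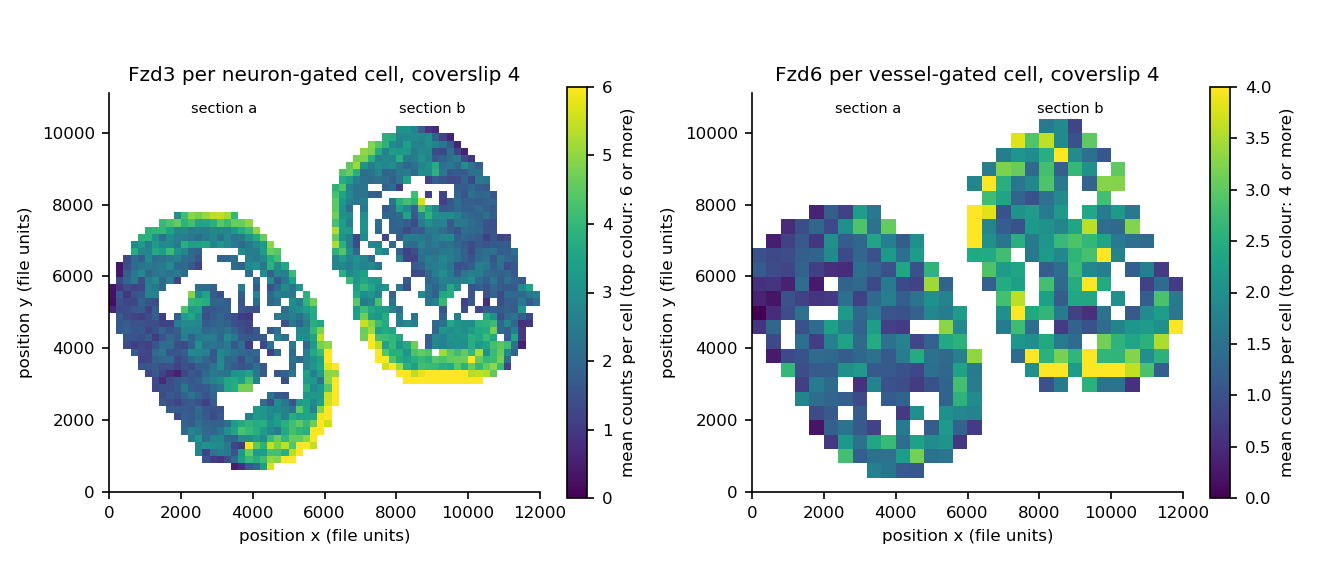
Mean Fzd3 counts per neuron-gated cell (left, squares of 200 coordinate units) and mean Fzd6 counts per vessel-gated cell (right, squares of 400 units with at least 5 cells) on coverslip 4, whose sections a and b were told apart by position. Read by eye, high Fzd3 squares ran along part of the outer edge of both sections. Fzd6 was lower in section a (1.38 counts per vessel-gated cell) than in section b (2.17).

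Within vessel cells Fzd6 went with the endothelial markers. Endothelial-gated cells, with at least 10 counts of Cldn5 and Pecam1 and at most 1 of Pdgfrb, carried 2.32, 2.15, 2.35 and 1.68 Fzd6 counts per cell. Mural-gated cells, with at least 5 counts of Pdgfrb and at most 1 of the endothelial markers, carried 0.219, 0.421, 0.403 and 0.307. The gates did not overlap on any coverslip, and the mural gate held only 140 to 361 cells per coverslip. Mural-gated cells were shallower, with median gene counts of 50 to 76 against 95 to 133 in endothelial-gated cells. They carried more Meg3, 5.34 against 1.45 counts per cell. The gates used no fibroblast marker, so fibroblasts with Pdgfrb were not excluded from the mural gate. By log2 per volume, mural-gated cells were lower by -3.53, -2.18, -2.12 and -1.91, with a fitted difference of -2.44 ± 0.32 (5.41-fold, adjusted p = 5.9e-06 by edgeR). In this comparison 4.46% of genes were called lower and 12.5% higher in mural-gated cells. Fzd6 was below the highest blank of mural-gated cells on 1 of 4 coverslips. The difference of Fzd3 was -0.37 ± 0.35 (adjusted p = 0.99), with coverslip values from -1.33 to 0.58.

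Other Frizzled genes divided the vessel gates the other way. Fzd2 (log2 3.22 ± 0.36) and Fzd7 (2.61 ± 0.35) were called higher in mural-gated cells. Mural-gated cells carried 0.409 ± 0.149 Fzd2 and 0.614 ± 0.213 Fzd7 counts, against 0.0499 ± 0.0106 and 0.114 ± 0.0130 in endothelial-gated cells. Fzd4 was lower by -1.36 ± 0.30 without passing the 2-fold test (adjusted p = 0.14), and it passed with TMM factors at -1.54 (adjusted p = 0.011).

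Fzd6 rose with the Cldn5 count of the vessel-gated cell. Cells with 0 to 4 Cldn5 counts carried 0.526 to 0.802 Fzd6 counts over the 4 coverslips, and cells with 60 or more carried 4.09 to 5.49. Mean cell volume ranged from 516 in cells with 5 to 14 Cldn5 counts to 1114 in cells with 60 or more. Per 1000 volume units Fzd6 went from 1.07 ± 0.254 to 4.48 ± 0.520 (SD, n = 4), increasing at each of the 5 ranges on all 4 coverslips. Fzd3 over the same ranges went from 0.192 ± 0.0400 to 0.340 ± 0.0446 counts per cell. This is a description of cells within coverslips, since Cldn5 is a gating gene, and it carries no test.

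**Figure D5:**
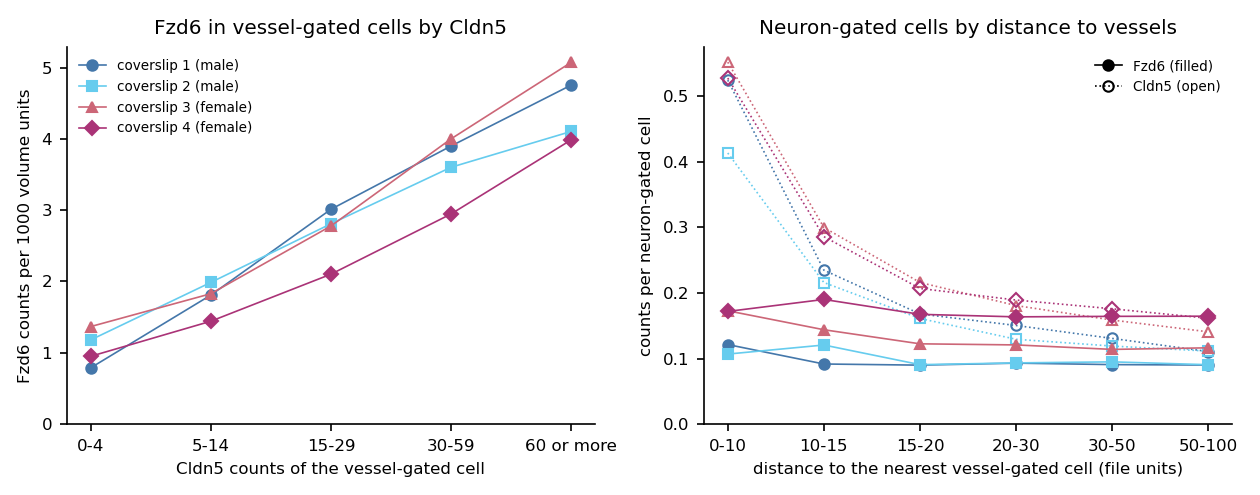
Left, Fzd6 counts per 1000 volume units in vessel-gated cells by Cldn5 count, with 1 line per coverslip. Right, Fzd6 (filled) and Cldn5 (open) counts per neuron-gated cell by distance to the nearest vessel-gated cell; Cldn5 was 0.505 within 10 units and 0.131 at 50 to 100 units, and Fzd6 0.143 and 0.115.

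The low Fzd6 count of neurons was higher beside vessels. Neuron-gated cells whose centre lay within 15 coordinate units of a vessel-gated cell exceeded those beyond 30 units by log2 0.22, 0.42, 0.48 and 0.23 per volume on the 4 coverslips. The fitted difference was 0.34 ± 0.05, which was not beyond 2-fold (adjusted p = 1 by edgeR) and differed from no change (adjusted p = 9.3e-11). Fzd10 (log2 0.23), Fzd9 (0.15), Fzd4 (0.14) and Fzd7 (-0.14) also differed from no change, at adjusted p under 0.05 by edgeR. Fzd1, Fzd2, Fzd3, Fzd5 and Fzd8 did not, and the share of all tested genes is not given here. The near level of Fzd6, 0.139 ± 0.0375 counts per cell, exceeded the highest blank (0.255 to 0.520) on 0 of 4 coverslips. In this comparison 0% of genes were called at 2-fold. Cldn5, which neurons should lack, was 0.505 ± 0.0619 counts per neuron within 10 units and 0.131 ± 0.0246 at 50 to 100 units, and Fzd6 was 0.143 ± 0.0342 and 0.115 ± 0.0350. Whether vessel transcripts assigned to neighbouring neurons account for this difference was not tested. Fzd3 differed by 0.03 ± 0.02 (adjusted p = 0.28 against no change).

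The sexes were set against each other with 2 coverslips on each side. Per 10000 gene counts of neuron-gated cells, Fzd3 was 84.4 and 84.3 on the male and 72.0 and 74.3 on the female coverslips. The log2 difference was -0.18 ± 0.18 (adjusted p = 0.82 by edgeR), and 0.714% of 140 genes were called. Fzd6 in neuron-gated cells, within the blanks, was 3.31 and 3.37 on the male and 3.85 and 4.23 on the female coverslips (log2 0.30 ± 0.22, adjusted p = 0.66 by edgeR). Fzd6 in vessel-gated cells was 184 and 197 on the male and 191 and 113 on the female coverslips per 10000 gene counts. The sexes overlapped, the log2 difference was -0.29 ± 0.19 (adjusted p = 0.70) and 0% of genes were called, with 13 at an unadjusted p under 0.05 by edgeR and 1 called by DESeq2. Without coverslip 3 the difference became -0.76 with an adjusted p of 0.029, a comparison that leaves coverslip 4 as the lone female sample, and without coverslip 4 it was 0.04. In all kept cells, where 4.29% of genes were called, Fzd3 (-0.14 ± 0.18) and Fzd6 (-0.19 ± 0.20) were not called. Depth, sex and coverslip order cannot be told apart here, since both female coverslips were deeper than both male ones.

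The genes most like each member over classes were found by Pearson correlation of log2 counts per volume over 15 gated classes and subtypes, which share coverslips and depth. Among 95 other genes above the blanks in at least 1 class, Fzd3 was most like Apc2, a neuronal relative of Apc (r = 0.97), Tbl1xr1, a subunit of a transcriptional corepressor complex (0.95), and Gpc1, the heparan sulphate proteoglycan glypican (0.95). Neuron-gated cells carried 9.67 ± 2.09 Apc2 and 9.83 ± 1.62 Gpc1 counts, and vessel-gated cells 0.890 ± 0.187 and 0.505 ± 0.0659. Tbl1xr1 was low, at 0.363 ± 0.0603 counts in neuron-gated cells, where it did not exceed every blank on every coverslip. Fzd6 was most like Tcf7 (0.96), Id1, a transcriptional regulator induced by BMP signals (0.95), and Fzd4 (0.91). Fzd6 exceeded every blank on all 4 coverslips only in vessel gates, so its correlations rest on those few classes, with the other classes at or near the blanks. Vessel-gated cells carried 1.55 ± 0.416 Tcf7 and 3.97 ± 0.905 Id1 counts, neuron-gated cells 0.124 ± 0.0128 and 0.198 ± 0.0112, and mural-gated cells 0.266 ± 0.0964 and 0.705 ± 0.175. Between Fzd3 and Fzd6 the correlation was -0.46.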

How the data were processed

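Per the labels' protocols, 10 µm coronal sections were imaged by MERFISH. The authors deposited, for every segmented cell, transcript counts of 140 genes and 40 blanks without normalization. Per the file headers, cell volume and centre come as other measures with no stated unit. The decoding and segmentation software is not given in the sources used here. No cell was shared between coverslips (0 shared).

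Cells with at least 20 gene counts were kept (7.96% left out). Marker gates used 28 genes, which were left out of the tests between classes. Gate limits were set on marker counts after the files were seen. The 2 genes, the lists and the tests were chosen with earlier results of these data known. Genes were named by rule: both members, the other Frizzled genes, the 3 genes most like each member and the 3 largest called differences of the lists in each direction. The Dvl genes, Lrp5, Daam2, Wnt4, Wnt5a, Tcf7l1, Lef1, Apc and Gsk3b were named after their values were seen.

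Counts were summed per class and coverslip and tested with edgeR 4.0.16 in R 4.3.3 (glmQLFit, robust; glmTreat against 2-fold; Benjamini-Hochberg over all tested genes), with summed volume as offset and coverslip as a block, because both classes come from the same sections. Sexes were tested with TMM factors and glmQLFTest. DESeq2 1.42.0 was an alternative. On simulated sums for the vessel and neuron comparison with 112 genes, 20 of 20 genes changed 4-fold passed the adjusted p, and 0 of 72 unchanged genes did. The simulation left out the blank rule and used 1 fixed dispersion. It had no shift common to all genes, unlike the data. Sections were told apart by position.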

Additional observations from a re-analysis of the deposited data

Results flagged for a closer look

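Of 30 sets of 4 coverslip values checked, 4 had a coverslip that stood apart by Dixon's test, where chance gives about 1 in 20. Fzd3 in vessel-gated cells was 0.269 counts per cell on coverslip 4, above the other coverslips. Fzd3 in oligodendrocyte precursor-gated cells was 0.490 on coverslip 3, below the others. The log2 difference of Fzd6 between vessel-gated and neuron-gated cells was 3.72 on coverslip 4, below the others, where it was 4.75 to 4.91. The log2 difference of Fzd6 between mural-gated and endothelial-gated cells was -3.53 on coverslip 1, below the others. On coverslip 1 the mural-gated Fzd6 level, 0.219 counts per cell, was below the highest blank of that gate, 0.446. The causes were not tested.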

How the results depend on the processing

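Of 308 alternative values, 261 kept the direction and the side of the threshold (or, for counts and ratios, stayed near the main value), 19 reversed, 21 moved, 6 lost and 1 gained a call. All 15 alternatives kept both calls between vessel-gated and neuron-gated cells, within -3.10 to -2.09 for Fzd3 and 4.43 to 5.51 for Fzd6, and without single coverslips the ranges were -3.09 to -3.02 and 4.43 to 4.83. Scaling moved most of the rest. For Fzd3 the call ended against astrocytes (-0.68 TMM, -0.72 library totals), precursors (-0.50, -0.45), microglia (-0.38 TMM) and border macrophages (-0.90 TMM). Genes called fell to 18 (TMM) and 19 (totals) for precursors and 21 (TMM) for microglia, from 35 and 45. Calls higher and lower were 29 and 8 for astrocytes with TMM against 18 and 29, 15 and 3 for precursors against 3 and 32, 15 and 6 for microglia against 6 and 39, 15 and 18 for border macrophages against 9 and 35, and 13 and 10 for mural-gated cells against 14 and 5.

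Uncalled Fzd6 differences reversed in precursors (0.29 TMM, 0.35 totals), microglia (0.74 TMM), border macrophages (1.21 TMM, 0.78 totals, 0.20 with markers 1.5 times as high, -0.18 to 0.19 without single coverslips) and inhibitory neurons (0.17 TMM, 0.0056 with markers 1.5 times as high, -0.052 to 0.044 without single coverslips). Fzd3 in mural-gated cells reversed to 0.022 with totals. Without the replicate block the only reversed value was Fzd6 in inhibitory neurons, at 0.0047, and no call of either gene was lost. Coverslip was the block, as both classes come from the same sections. No paired analysis was possible for the sexes because their replicate numbers follow accession order. Neuron over vessel Fzd3 was 10.3 per cell, 8.26 per volume, 4.25 per 10000 counts and 3.93 thinned. Vessel over neuron Fzd6 was 19.8 per cell, 47.5 per 10000 counts and 29.4 thinned.

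Between sexes, scaling to volume reversed Fzd3 to 0.29 (all cells), 0.16 (neurons) and 0.20 (vessel) and Fzd6 to 0.20 (all cells). Called genes went from 6 to 0 with volume (all cells), from 1 to 3 with totals, 6 with volume and 8 with DESeq2 (neurons), and from 0 to 1 with DESeq2 (vessel). Without single coverslips they were 0 to 6, 0 to 3 and 0 to 4, and Fzd6 ran from -0.44 to 0.029 (all cells) and -0.76 to 0.040 (vessel). The causes were not tested. Fzd6 exceeded every blank on no coverslip in 5 of the 7 classes and on 3 of 4 in astrocytes, which limits its values outside vessel-gated cells.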

Other observations

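Position separated each coverslip into section a and section b, and which of the 2 was the wild-type section is not known. Fzd6 per vessel-gated cell was 2.28 in section a and 2.23 in section b of coverslip 1, 2.38 and 1.98 on coverslip 2, 2.08 and 2.85 on coverslip 3, and 1.38 and 2.17 on coverslip 4. Section a of coverslip 4 was the lowest of the 8 sections in Fzd6. Its vessel-gated cells carried 24.9 Cldn5, 10.3 Pecam1, 1.44 Pdgfrb and 1.38 Fzd4 counts each, all below section b of that coverslip, which carried 36.7, 10.97, 1.69 and 1.90. Cldn5 over the 8 sections ran from 21.3 to 36.7 and Pecam1 from 6.51 to 10.97. Section a of coverslip 4 was thus not low in every vessel gene. Its Pecam1, Tcf7 (2.13) and Id1 (5.15) counts were exceeded only by section b of coverslip 4 (2.21 Tcf7 and 5.51 Id1). Fzd3 per neuron-gated cell was 2.48 and 2.19 on coverslip 1, 2.77 and 2.01 on coverslip 2, 1.82 and 2.57 on coverslip 3, and 2.83 and 3.02 on coverslip 4. On coverslips 1 to 4 the section with the higher Fzd3 per neuron also had the higher Fzd6 per vessel-gated cell. It also had more gene counts per vessel-gated cell, 124 against 121 on coverslip 1, 111 against 107 on coverslip 2, 140 against 116 on coverslip 3 and 171 against 140 on coverslip 4, and the part of depth in this was not tested. The letters carry no order, and no test was made between sections.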
